A study of Arabidopsis thaliana with 8 samples.

Results

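Histones are the small basic proteins around which DNA is wound in the nucleosome. Each nucleosome holds pairs of H2A, H2B, H3 and H4, and a linker histone, H1, binds where DNA enters and leaves it. Replicative histones such as H3.1 are made in quantity while DNA is copied, whereas variants such as H3.3 and H2A.Z are also deposited outside replication. CENH3 replaces ordinary H3 at centromeres. In a growing pistil, levels of replicative histone transcripts are therefore usually read together with those of other genes of DNA replication.

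The histone genes described here were the loci whose deposited description was "Histone superfamily protein" or opened with the name of histone H1, H2A, H2B, H3 or H4, and there were 50 of them among 27197 loci. The reference annotation supported 43 as genes of histones, namely 1 H1, 4 canonical H2A, 1 H2A.X, 4 H2A.Z, 3 H2A.W, 10 H2B, 5 H3.1, 3 H3.3, 4 other H3 and 8 H4 genes. The other 7 were not nucleosomal histones. Of these, 4 had descriptions naming an H3 K4-specific methyltransferase of the SET7/9 family (AT1G21920, AT1G77660, AT2G35170 and AT4G17080), and 3 were histone-fold proteins (the embryo regulator LEC1, AT5G19490 and AT5G50930, which is annotated as the homolog of human MHF1). The rule also missed 6 genes known as histones whose descriptions differ, MGH3, HTR11, GAMMA-H2AX, HTB2 and the H1 genes AT1G06760 and AT2G30620, and these are given separately as non-members.

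RNA was sequenced from hand-dissected carpels of Arabidopsis thaliana, ecotype Columbia, at floral stages 8 to 13, with 15 inflorescences per sample. The groups were WT with 2 libraries, nga with 3 libraries whose genotype is given as nga 1/2/3/4, and 35S:NGA overexpression with 3 libraries, and all were grown on soil in long days. The NGATHA (NGA) proteins are transcription factors with a B3 domain, and the style and stigma of the pistil need them. The 35S promoter drives expression in most plant tissues, so the added transcript is not limited to the carpel.

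NGA4 was between 0.123 and 0.248 RPKM in nga against 3.83 and 3.97 in WT, and NGA3 was between 2.56 and 2.97 RPKM in nga and between 102 and 166 in 35S:NGA against 4.81 and 5.47 in WT. NGA1, at 21.2 to 25.6 RPKM in nga against 23.5 and 23.9 in WT, and NGA2, at 7.73 to 14.9 against 8.15 and 9.50, were not called lower in nga, so these levels do not check the nga label for NGA1 and NGA2. In 35S:NGA, NGA1 had 12.9 to 21.4 RPKM, NGA2 5.78 to 8.88 and NGA4 3.68 to 4.56. RPKM express reads relative to the length of a transcript and the size of a library. The mapped reads ranged from 23.1 M to 38.3 M per library. WT 1, WT 2, nga 1 and nga 2 came from lane 6, 35S:NGA 1 and 35S:NGA 2 from lane 7, and nga 3 and 35S:NGA 3 from lane 8, so 35S:NGA and WT share no lane, and effects of lane and genotype cannot be told apart between them. All 8 carpel and ovule markers reached 1 RPKM in every library, summing to 428 and 429 RPKM in WT, 450 to 539 in nga and 426 to 507 in 35S:NGA. Single markers did not all follow the sum. CRC had 7.39 to 19.2 RPKM in 35S:NGA against 29.6 and 41.7 in WT, while SPT had 53.4 to 67.4 against 31.1 and 30.9. Of the 8, 2 were called higher in nga than in WT and none lower, beside 9.26% and 7.65% of all loci. Against nga, 1 was called higher and 1 lower in 35S:NGA, where 5.34% of all loci were called. Nothing in the labels says that replicates came from separate plants, and the p-values below thus reflect spread between libraries that may be technical in origin.

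Differences were tested with limma on log2(RPKM + 1) over the 17786 loci that reached 1 RPKM in at least 2 libraries, and a locus was called at a Benjamini-Hochberg adjusted p under 0.05. Of the 50 histone loci, 40 passed this filter. The 10 that did not were HTA4, the H3.1 gene AT3G27360, the H3 genes AT1G13370, AT1G75600 and AT5G12910, the H2B genes HTB11, AT1G08170, AT3G09480 and AT5G02570, and LEC1. None of these reached 1 RPKM in any library, and AT5G12910 was listed at 0 in every library. AT1G08170, which is known from the male germline, lay between 0.152 and 0.841 RPKM.

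In nga carpels, 10 of the 22 tested genes of canonical H2A, H2B, H3.1 and H4 fell and none rose. Variant genes went both ways. The H2A.Z gene HTA9 and an H3.3 gene were higher than in WT, while the H2A.Z genes HTA8 and HTA11, the H2A.W gene HTA6 and the CENH3 gene HTR12 fell. Of all 40 tested loci, 15 fell and 3 rose. Among all loci tested, 7.65% were called lower and 9.26% higher, together 16.9%. The median log2 difference of the 40 loci was −0.66, beside −0.00082 over all loci tested. In 22 of the 40 every nga library was below every WT library, and in 7 every nga library was above, while the shares among all loci were 27.7% and 29.4%. Of the 34 tested histone genes proper, 14 fell and 2 rose. As these are bulk samples, fewer cells of a type and less RNA per cell cannot be told apart.

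The calls rested on few libraries. With nga 1 or nga 2 left out 3 and 5 of the 18 calls passed, and all 18 kept their direction. All 18 also kept their direction with WT 1 or WT 2 left out, which leaves 1 WT library. Calls over all loci changed with the library left out too, so these counts alone do not set the histone loci apart. HTR12, HTA8 and the H4 gene AT3G46320 were the 3 that passed without nga 1.

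**Figure D1:**
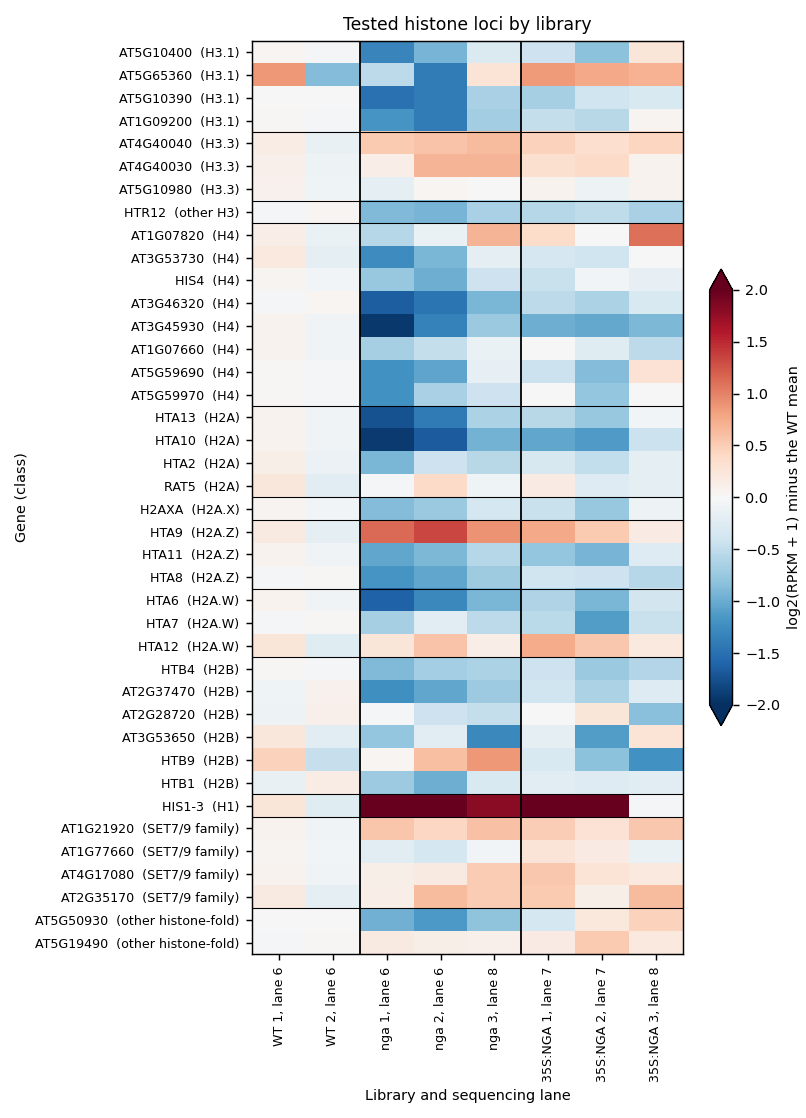
Each row is 1 of the 40 tested histone loci, grouped by class, and each column is 1 library with its sequencing lane. Colour gives log2(RPKM + 1) minus the mean of the 2 WT libraries, with the scale cut at −2 and 2. Most rows of H4, H2A and H2B genes are blue in nga 1 and nga 2 and paler in nga 3, while HTA9 and HIS1-3 are red.

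The H3.1 genes encode the replicative form of H3. All 5 encode the same protein of 136 residues, and the 3 H3.3 genes encode another of 136 residues that differs from it at 4 positions, 31, 41, 87 and 90, counted without the initiator residue. The coding sequences around the first of these are shown for 4 of the genes. In nga AT1G09200 fell and AT4G40040 rose, while AT5G10400 and AT5G10980 were not called. The capitals mark codon 32, which encodes residue 31, within coding bases 79 to 108 (RefSeq, TAIR10.1).
H3.1 gene AT5G10400: aggaaatcagctccaGCCaccggaggagtg
H3.1 gene AT1G09200: aggaaatctgctccgGCCaccggaggagtg
H3.3 gene AT5G10980: aggaaatcagcaccaACCaccggaggagtc
H3.3 gene AT4G40040: cgtaagtctgcaccaACCactggaggagtc

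AT5G10390 (chromosome 5, bases 3268847 to 3269594) had 45.8 and 45.7 RPKM in WT, with 15.5, 16.7 and 28.7 in nga and with 28.4, 34.3 and 36.9 in 35S:NGA. Every nga library lay below WT, and the log2 difference was −1.19 ± 0.25 (SE, adjusted p = 0.0228). AT1G09200 (chromosome 1, bases 2971571 to 2972334) had 3.14 and 3.04 RPKM in WT, with 0.804, 0.559 and 1.52 in nga and with 1.92, 1.78 and 3.23 in 35S:NGA. It also fell in nga, by 1.09 ± 0.26 on the log2 scale (adjusted p = 0.0313).

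The most abundant H3.1 gene, AT5G10400 (chromosome 5, bases 3270172 to 3270957), had 320 and 301 RPKM in WT, with 123, 163 and 255 in nga and with 232, 175 and 367 in 35S:NGA. All 3 nga libraries were below WT, but nga 3 stood close to it, and the difference of −0.84 ± 0.36 was not called (adjusted p = 0.132). In lane 6 alone it was −1.12 (adjusted p = 0.0128). AT5G65360 varied as much within WT, at 114 and 33.7 RPKM, as between groups, with 42.9, 23.0 and 75.3 in nga. Its 35S:NGA libraries stood at 112, 106 and 101 RPKM. AT3G27360 stayed below 1 RPKM, and 35.6% of its 50-base windows also occur at other loci, so reads of this gene may have been split or dropped by the authors' counting, which was not tested.

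None of the H3.3 genes fell. AT4G40040 (chromosome 4, bases 18557149 to 18558945), the most abundant histone gene of all, had 551 and 448 RPKM in WT, with 719, 736 and 776 in nga and with 681, 629 and 671 in 35S:NGA. The nga and WT libraries did not overlap, and it rose in nga by 0.58 ± 0.17 on the log2 scale (adjusted p = 0.0483). This rise was not called in lane 6 alone, and of the 8 fits that left out a library 1 called it. AT4G40030 had 374 and 321 RPKM in WT and 382, 555 and 554 in nga, a difference of 0.50 ± 0.21 that was not called (adjusted p = 0.134). AT5G10980 had 392 and 345 RPKM in WT and 326, 376 and 370 in nga, with overlapping groups and a difference of −0.04 ± 0.15.

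The H3.1 genes together made up 26.8% and 25.6% of the summed RPKM of H3.1 and H3.3 genes in WT. In nga the share was 11.4%, 10.9% and 17.5%, and in 35S:NGA it was 20.0%, 18.3% and 26.3%. The nga libraries lay below all others, with nga 3 nearest to 35S:NGA 2. The summed H3.1 RPKM was 483 and 384 in WT and 183, 203 and 361 in nga. The summed H3.3 RPKM was 1317 and 1115 in WT and 1426, 1667 and 1700 in nga. In nga 3 the H3.1 sum was thus close to that of WT 2, and the H3.3 sum was higher. In WT the mean share was 26.2% ± 0.9 (SD, n = 2) and in nga 13.2% ± 3.7 (SD, n = 3).

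HTR12 encodes CENH3, the H3 of centromeres on which kinetochores form, and it lies on chromosome 1 at bases 143489 to 146479. It had 26.8 and 28.4 RPKM in WT, with 14.5, 14.0 and 17.3 in nga and with 18.3, 19.2 and 17.3 in 35S:NGA. Both altered lines lay below WT without overlap. The fall in nga was 0.82 on the log2 scale, from a difference of −0.82 ± 0.13 (adjusted p = 0.0128), and the difference in 35S:NGA was −0.57 ± 0.13 (adjusted p = 0.0970, not called). Among non-members, HTR11 had 29.0 and 44.2 RPKM in WT and 17.0, 23.9 and 22.8 in nga (adjusted p = 0.0565, not called). The sperm-cell H3 gene MGH3, also known as HTR10, was at most 0.503 RPKM in WT and nga and was highest in 35S:NGA 3, at 1.86 RPKM, followed by 35S:NGA 2. In 35S:NGA 2 and 35S:NGA 3 the 8 mature pollen markers summed to 203 and 293 RPKM, against 32.6 to 166 in the others. The 166 was in nga 1, where MGH3 had its lowest value, 0.102 RPKM. The 4 sperm cell markers summed to 3.42 and 4.52 RPKM in 35S:NGA 2 and 35S:NGA 3, against 2.67 to 4.29 in the others. A link between MGH3 and pollen content was not tested.

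The 8 H4 genes all encode the same protein of 103 residues, so the genes differ outside the protein they encode. Of these, 3 fell in nga and the median difference of the 8 was −0.77. AT3G46320 (chromosome 3, bases 17019785 to 17020428) had 124 and 130 RPKM in WT, with 40.0, 45.3 and 66.8 in nga and with 88.3, 81.9 and 103 in 35S:NGA. The 3 groups did not overlap, with nga lowest and WT highest, and the nga difference was −1.34 ± 0.21 (adjusted p = 0.0138).

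AT3G45930 (chromosome 3, bases 16883316 to 16884009) had 128 and 116 RPKM in WT, with 31.1, 47.3 and 72.1 in nga and with 61.1, 59.5 and 64.8 in 35S:NGA. It was below WT in both lines, with a nga difference of −1.34 ± 0.29 (adjusted p = 0.0249). AT3G45930 and AT3G46320 share 25.7% and 27.9% of their 50-base windows with each other, so their counts are uncertain as separate values. Their promoters are identical at 296 of 300 positions. HIS4 had 122 and 113 RPKM in WT, with 69.4, 59.0 and 87.6 in nga and with 85.7, 113 and 105 in 35S:NGA, and fell in nga by 0.72 ± 0.19 on the log2 scale (adjusted p = 0.0405).

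The other 5 H4 genes were not called. AT1G07820, the most abundant, had 195 and 163 RPKM in WT, with 120, 163 and 287 in nga and with 231, 178 and 385 in 35S:NGA. The lane 8 libraries nga 3 and 35S:NGA 3 were its highest, and its nga difference was −0.01 ± 0.41. AT3G53730, AT5G59690, AT5G59970 and AT1G07660 had nga differences of −0.79, −0.81, −0.76 and −0.43. AT1G07820 and AT1G07660 share 19.4% and 28.5% of their 50-base windows with other loci, mainly each other.

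**Figure D2:**
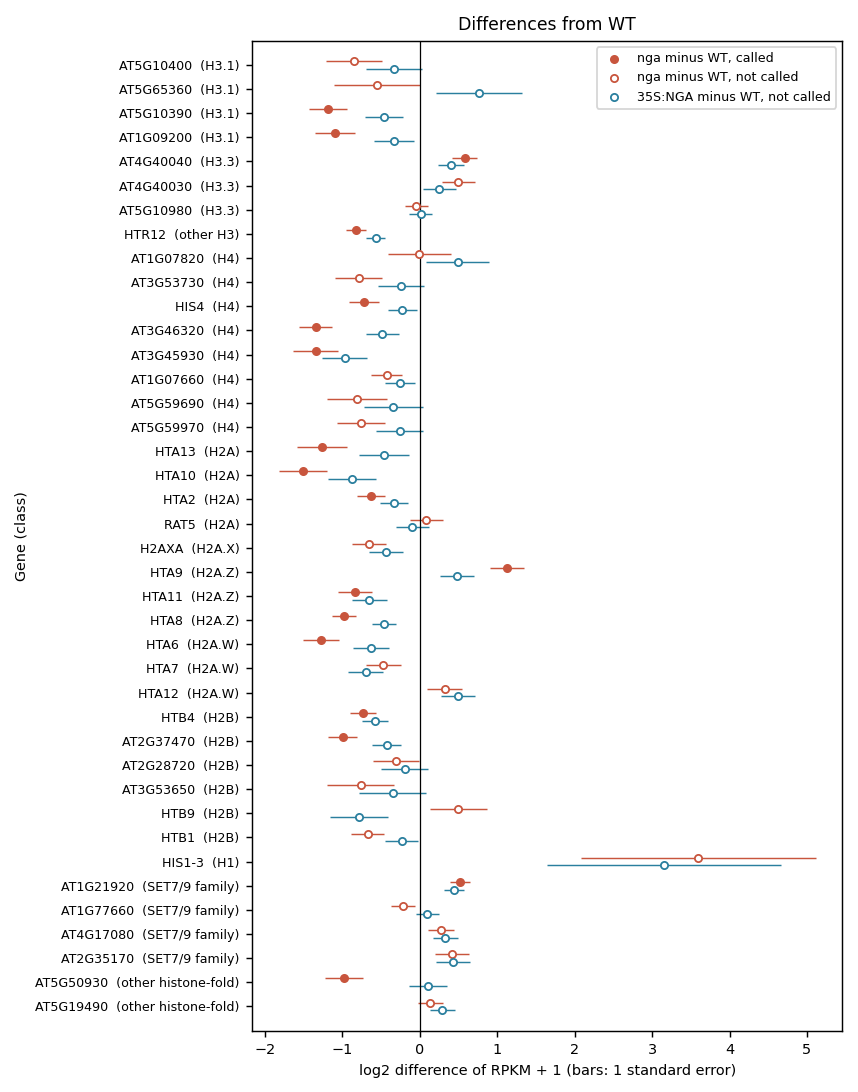
Points give the log2 difference of RPKM + 1 from WT for the 40 tested loci in nga (red) and 35S:NGA (blue), with bars of 1 standard error, and filled points are called. HTA10 has the lowest nga difference, −1.51, and HTA9 the highest called one, 1.13. None of the 35S:NGA points is filled.

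Canonical H2A pairs with H2B in the nucleosome, and 3 of its 4 genes fell in nga. HTA10 (chromosome 1, bases 18926811 to 18927746) had 262 and 237 RPKM in WT, with 65.6, 77.8 and 129 in nga and with 120, 113 and 185 in 35S:NGA. All altered libraries lay below WT, and the nga difference was −1.51 ± 0.31 (adjusted p = 0.0225), or 2.84-fold lower. HTA13 (chromosome 3, bases 7229390 to 7230146) had 256 and 232 RPKM in WT, with 72.3, 91.1 and 157 in nga and with 165, 144 and 234 in 35S:NGA, a nga difference of −1.26 ± 0.33 (adjusted p = 0.0378). HTA2 had 192 and 162 RPKM in WT and 93.2, 131 and 120 in nga, and its adjusted p of 0.0489 was just inside the threshold. RAT5, the gene HTA1 whose loss is known to reduce Agrobacterium transformation of roots, had 89.7 and 64.9 RPKM in WT and 73.9, 99.5 and 72.0 in nga, with overlapping groups.

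H2A.X is the variant that is phosphorylated at DNA breaks. H2AXA had 190 and 174 RPKM in WT, with 99.5, 108 and 142 in nga and with 133, 107 and 169 in 35S:NGA. Each altered library lay below WT, but the nga difference of −0.65 ± 0.22 was not called (adjusted p = 0.0756), whereas it was in lane 6 alone (−0.80, adjusted p = 0.0120). The non-member GAMMA-H2AX, the other H2A.X gene, fell from 94.3 and 93.9 RPKM in WT to 38.4, 42.0 and 63.9 in nga (−0.99 ± 0.20, adjusted p = 0.0225). Of its 50-base windows 53.3% also occur at other loci, so its counts are uncertain.

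H2A.Z marks the first nucleosomes of many plant genes and is exchanged by the SWR1 complex. In nga 1 of its 3 tested genes rose and 2 fell. HTA9 (chromosome 1, bases 19645236 to 19646485) had 190 and 147 RPKM in WT, with 369, 425 and 314 in nga and with 282, 240 and 189 in 35S:NGA. Every nga library exceeded all others, and the rise in nga was 1.13 ± 0.22 on the log2 scale, or 2.18-fold (adjusted p = 0.0209). HTA8 (chromosome 2, bases 16219220 to 16220928) had 38.1 and 39.5 RPKM in WT, with 16.5, 18.3 and 23.4 in nga and with 29.1, 29.0 and 25.9 in 35S:NGA.

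The 3 groups of HTA8 did not overlap, and it fell in nga (−0.98 ± 0.15, adjusted p = 0.0138). HTA11, the third expressed H2A.Z gene, had 213 and 194 RPKM in WT, with 98.6, 109 and 137 in nga and with 119, 107 and 171 in 35S:NGA, with a nga difference of −0.84 ± 0.22 (adjusted p = 0.0411). HTA9 was thereby 43.1% and 38.6% of the summed H2A.Z RPKM in WT. It was 76.2%, 77.0% and 66.3% of it in nga and 65.6%, 63.9% and 48.9% in the 35S:NGA libraries. The summed H2A.Z RPKM itself was 442 and 381 in WT and 484, 553 and 474 in nga, so the total was not lower in nga.

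H2A.W is a plant variant of heterochromatin. HTA6 (chromosome 5, bases 24115354 to 24116220), the most abundant of its genes, had 386 and 352 RPKM in WT, with 120, 150 and 195 in nga and with 243, 194 and 287 in 35S:NGA. It fell in nga by 1.27 ± 0.24 on the log2 scale (adjusted p = 0.0185), and both lines lay below WT. HTA7 had 130 and 136 RPKM in WT, with 83.3, 115 and 91.9 in nga and with 91.5, 60.7 and 97.7 in 35S:NGA, and was not called. HTA12 had 18.0 and 12.5 RPKM in WT and 18.1, 22.9 and 16.7 in nga, and 34.2% of its 50-base windows are shared with AT5G02570, which overlaps it. HTA6 made up 72.2% and 70.4% of the summed H2A.W RPKM in WT. Its share was 54.2%, 52.2% and 64.2% in nga and 67.4%, 70.1% and 71.3% in the 35S:NGA libraries.

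**Figure D3:**
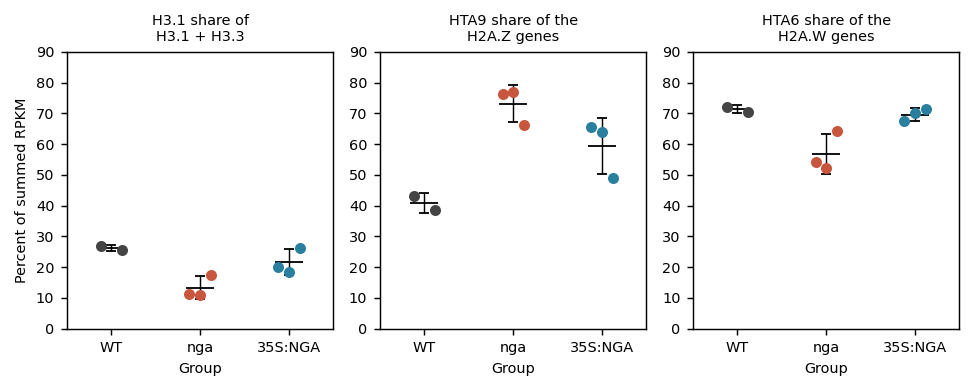
Points give, for each library, the percent of summed RPKM taken by H3.1 among H3.1 and H3.3 genes, by HTA9 among H2A.Z genes and by HTA6 among H2A.W genes, with lines for the mean and bars for 1 SD (n = 2 for WT, 3 for the others). In nga the H3.1 share is 10.9% to 17.5% and the HTA9 share 66.3% to 77.0%, on opposite sides of WT.

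H2B completes the nucleosome core, and 2 of its 6 tested genes fell in nga. AT2G37470 (chromosome 2, bases 15736727 to 15737728) had 178 and 199 RPKM in WT, with 80.2, 91.0 and 114 in nga and with 143, 121 and 158 in 35S:NGA. The 3 groups did not overlap, and the nga difference was −0.99 ± 0.18 (adjusted p = 0.0184). HTB4 (chromosome 5, bases 24126877 to 24128162), the most abundant H2B gene, had 692 and 666 RPKM in WT, with 366, 425 and 438 in nga and with 508, 405 and 453 in 35S:NGA, a nga difference of −0.73 ± 0.17 (adjusted p = 0.0286).

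HTB4 took 71.8% to 74.2% of the summed H2B RPKM in WT and 73.2% to 75.1% in nga, so the class total followed this gene. HTB1, at 2.77 and 3.61 RPKM in WT and 1.52, 1.11 and 2.39 in nga, was not called (adjusted p = 0.0648). AT2G28720, AT3G53650 and HTB9 had overlapping groups, and 31.4% of the 50-base windows of HTB9 occur at other loci, among them HTB11. The non-member HTB2 fell from 4.86 and 4.88 RPKM in WT to 1.08, 1.33 and 2.28 in nga (−1.22 ± 0.24, adjusted p = 0.0209).

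The linker histone gene HIS1-3 (chromosome 2, bases 7845923 to 7847031), which is known to be induced by drought and abscisic acid, varied most. It had 6.18 and 4.15 RPKM in WT, with 67.5, 272 and 20.4 in nga and with 149, 177 and 4.97 in 35S:NGA. Every nga library was above WT, 35S:NGA 1 and 35S:NGA 2 were high, and 35S:NGA 3 lay between the WT libraries. The nga difference of 3.60 ± 1.51 was not called (adjusted p = 0.128), while in lane 6 alone it was 4.49 (adjusted p = 0.0126) and with 35S:NGA 3 left out it was called with an adjusted p of 0.0433. The non-member H1 genes AT1G06760, at 420 and 350 RPKM in WT and 271, 339 and 347 in nga, and AT2G30620, at 198 and 171 RPKM in WT and 193, 258 and 230 in nga, were not called.

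**Figure D4:**
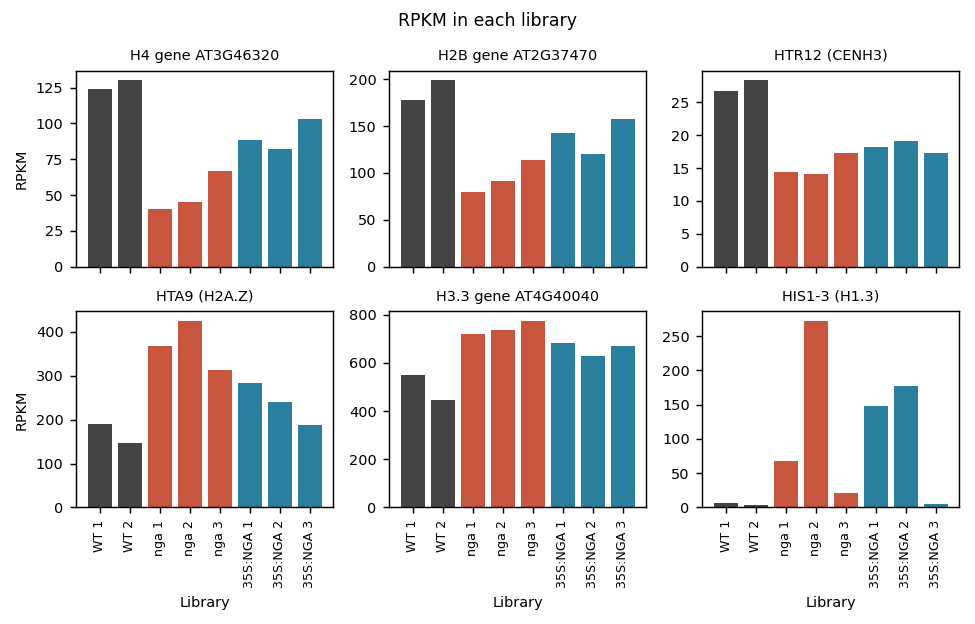
Bars give RPKM in each of the 8 libraries for 6 histone genes, with WT in grey, nga in red and 35S:NGA in blue, on linear axes from 0. AT3G46320, AT2G37470 and HTR12 are lowest in nga, HTA9 and AT4G40040 are highest in nga, and HIS1-3 ranges from 4.15 to 272 RPKM.

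Among the 7 loci that are not nucleosomal histones, 1 rose and 1 fell in nga. AT1G21920, whose annotation carries a MORN motif, had 18.3 and 16.5 RPKM in WT, with 26.1, 23.5 and 26.5 in nga and with 24.9, 21.5 and 25.7 in 35S:NGA, a nga difference of 0.52 ± 0.13 (adjusted p = 0.0332). AT5G50930, the MHF1 homolog, had 2.69 and 2.75 RPKM in WT, with 0.917, 0.674 and 1.13 in nga and with 1.93, 3.29 and 4.15 in 35S:NGA. MHF1 is known in humans as a histone-fold partner of the DNA repair helicase FANCM. Its nga difference was −0.97 ± 0.24 (adjusted p = 0.0356). The other 3 loci of the SET7/9 description and AT5G19490 were not called.

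In 35S:NGA against WT, 0 of the 40 loci were called, where 0.152% of all loci were. Unadjusted, 9 were lower and 2 higher at p under 0.05, beside 8.37% and 12.0% of all loci. The median log2 difference was −0.26, beside 0.02 over all loci, and in 15 of the 40 every 35S:NGA library was below WT, against 23.3% of all loci. HTR12 had the lowest adjusted p, 0.0970. Where only WT and 35S:NGA were fitted, 1 locus was called where 1.84% of all loci were, the H4 gene AT3G45930, at −0.97 (adjusted p = 0.0328).

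In 35S:NGA against nga, 2 of the 40 loci rose and none fell, where 3.72% of all loci rose and 5.34% were called. They were AT3G46320, at 0.86 ± 0.19 (adjusted p = 0.0417), and AT5G50930, at 1.08 ± 0.22 (adjusted p = 0.0313). In 8 of the 40 every 35S:NGA library was above every nga library, against 13.6% of all loci. The median difference was 0.30, beside 0.0028 over all loci. Neither locus was called with the lane as a term, with only these groups fitted, or without WT 1, WT 2, nga 1, nga 2, 35S:NGA 2 or 35S:NGA 3. With nga 3 left out 14 loci were called, 13 of them higher in 35S:NGA, where 14.2% of all loci were called. The comparisons share their nga or WT libraries and are not independent of each other.

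Within both altered lines the lane 8 library tended to hold the highest histone levels. Of the 40 tested loci, 28 had their highest nga value in nga 3 (70.0%, beside 43.8% of all loci), and 23 had their highest 35S:NGA value in 35S:NGA 3 (57.5%, beside 33.1%). Among the 15 that fell in nga these counts were 14 and 11. These 15 were chosen by their nga values, and the counts were not made for all loci called lower in nga. They are therefore not read as a trait of histone loci. In lane 6 alone, with 2 libraries of each group, 21 of the 40 loci fell in nga and 3 rose, while 15.8% of all loci were called lower and 15.2% higher in that fit. The green tissue markers, 12 genes all at 1 RPKM or more, summed to 4180 and 4267 RPKM in WT, with 5074, 8214 and 4604 in nga and with 4614, 4741 and 10215 in 35S:NGA and were thus highest in nga 2 and 35S:NGA 3. The 8 tapetum and microspore markers summed to 33.7 and 14.6 RPKM in WT, 29.9 to 39.2 in nga and 21.8 to 27.0 in 35S:NGA. In WT 1 this sum held 10.8 RPKM of A9, which was at most 0.658 RPKM in any other library. Only 2 of these markers, LAP6 and TKPR1, were tested, and both were called higher in nga than in WT, where 9.26% of all loci were. The 4 sperm cell markers summed to between 2.67 and 4.52 RPKM in all libraries. The part of these cells in the histone differences was not tested.

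Histones reach DNA through chaperones, and of the 25 listed genes of chaperones and variant deposition 3 fell and 2 rose in nga, where 7.65% of all loci fell and 9.26% rose. Their differences ran from −1.19 to 1.03, with a median of −0.11, and unadjusted 9 were lower and 6 higher at p under 0.05, beside 17.8% and 18.5% of all loci. FAS1, the large subunit of the CAF-1 complex that deposits H3.1 at replication, had 13.5 and 16.3 RPKM in WT, with 5.61, 4.14 and 8.92 in nga and with 9.48, 11.5 and 8.86 in 35S:NGA (nga difference −1.19 ± 0.26, adjusted p = 0.0258). FAS2, another CAF-1 subunit, fell by 0.84 ± 0.23 (adjusted p = 0.0437), and the remodeller DDM1 fell by 0.52 ± 0.13 (adjusted p = 0.0338), both on the log2 scale.

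SWC6, a subunit of the SWR1 complex that inserts H2A.Z, rose from 12.5 and 12.6 RPKM in WT to 20.0, 20.7 and 21.0 in nga (0.67 ± 0.12, adjusted p = 0.0179). The listed SWR1 genes PIE1, ARP6 and SWC2 had nga differences of −0.40 ± 0.19, 0.35 ± 0.11 and 0.14 ± 0.13, and none was called. INO80, a remodeller also linked to H2A.Z, rose by 1.03 ± 0.30 (adjusted p = 0.0490). HIRA, which deposits H3.3, had 8.17 and 7.80 RPKM in WT and 7.60, 7.29 and 7.76 in nga and was not called.

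Of the 27 listed DNA replication genes 19 fell in nga and none rose, where 7.65% of all loci fell and 9.26% rose. Their median difference was −1.11. The 3 with the lowest adjusted p were ICU2, a catalytic subunit of DNA polymerase alpha (−1.11 ± 0.20, adjusted p = 0.0179), the helicase subunit MCM5 (−1.36 ± 0.25, adjusted p = 0.0185) and the origin recognition subunit ORC4 (−1.10 ± 0.20, adjusted p = 0.0185). Of the 17 listed mitosis genes 2 fell and none rose, beside the same shares of all loci, and the median was −0.45. The 2 were the kinases CDKB1;2 (−0.73 ± 0.15, adjusted p = 0.0220) and CDKB1;1 (−0.81 ± 0.18, adjusted p = 0.0281). At an unadjusted p under 0.05, 25 replication and 7 mitosis genes were lower in nga and none higher, beside 17.8% and 18.5% of all loci. In neither 35S:NGA comparison was any gene of the 3 lists called. Against WT the 35S:NGA medians were −0.56 for replication and −0.53 for mitosis. Unadjusted, 9 replication genes were lower and none higher in 35S:NGA than in WT at p under 0.05, with 10 mitosis genes lower and none higher, beside 8.37% of all loci lower and 12.0% higher.

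**Figure D5:**
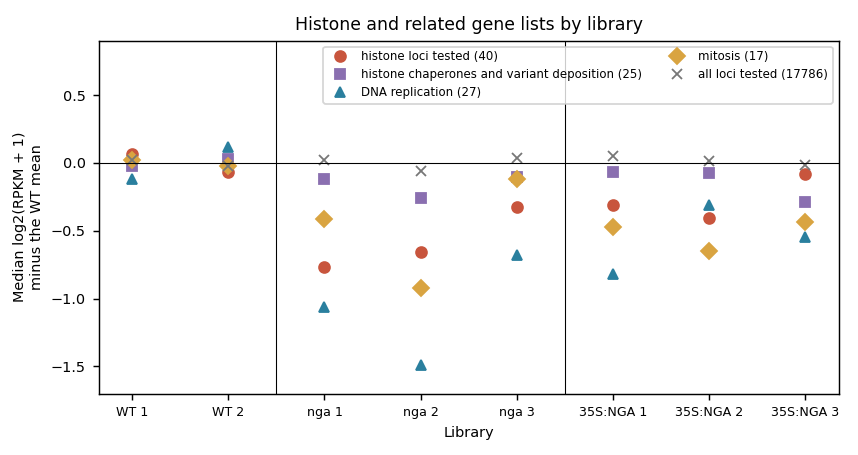
Symbols give, per library, the median over each list of log2(RPKM + 1) minus the WT mean, for the 40 histone loci, 25 chaperone and deposition genes, 27 DNA replication genes, 17 mitosis genes and all 17786 tested loci. In nga 1 and nga 2 the histone median is −0.77 and −0.66, and it is −0.33 in nga 3, while all loci stay between −0.06 and 0.05.

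Of 13519 other loci with a mean of at least 5 RPKM, the 5 whose log2(RPKM + 1) over the 8 libraries was most like the mean of the H3.1 genes were HEXO2, PFK5, AT2G46140, ABA2 and SKD1, with Pearson r from 0.976 to 0.981. These r values are a description over 8 libraries that share groups and lanes. PFK5 fell in nga (−0.89 ± 0.21, adjusted p = 0.0323), and the other 4 were not called in any comparison.

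Plant histone promoters are known for short shared motifs. In windows from 250 bases before to 50 after the RefSeq gene start, the octamer CGCGGATC on either strand was found in 9 of the 50 loci and in 39 of 26700 promoters (0.146%). The 9 were the H3.1 genes AT5G10400, AT5G65360 and AT1G09200, the H3.3 gene AT4G40040, the H4 genes AT1G07660 and AT5G59690, and HTA10, HTA13 and HTA6. Of these 9, 4 fell and 1 rose in nga, and of the 31 tested loci without it 11 fell and 2 rose. The windows below belong to the 5 called loci and to the most abundant H3.1 gene, end before the gene start, and run along the gene's strand, with the octamer or its reverse complement in capitals.
AT5G10400, chr5:3271044-3271103, minus strand: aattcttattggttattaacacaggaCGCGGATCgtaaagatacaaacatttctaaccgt
AT1G09200, chr1:2972391-2972450, minus strand: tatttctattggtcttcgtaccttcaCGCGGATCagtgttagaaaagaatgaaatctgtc
HTA10, chr1:18926711-18926770, plus strand: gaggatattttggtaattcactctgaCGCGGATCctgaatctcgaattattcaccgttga
HTA13, chr3:7229296-7229355, plus strand: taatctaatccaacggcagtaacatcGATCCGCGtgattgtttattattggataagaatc
HTA6, chr5:24116303-24116362, minus strand: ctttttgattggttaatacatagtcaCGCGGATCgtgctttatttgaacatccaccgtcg
AT4G40040, chr4:18558946-18558988, minus strand: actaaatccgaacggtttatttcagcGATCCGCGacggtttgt

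The octamer opened 120 bases before the start in AT5G10400, 116 in HTA6, 90 and again 19 in AT1G09200, 74 and on the other strand 10 in HTA10, 68 in HTA13 and 17 in AT4G40040. The hexamer ACGTCA was in 12 of the 50 loci and 9.22% of all promoters, and 8 of the 10 H2B genes held it. Of the 9 tested loci with the hexamer 2 fell and none rose in nga, and of the 31 without it 13 fell and 3 rose. None of the 50 held TTTCCCGC, which occurs in 0.798% of promoters. The E2F-type site TTTGGCGC, in 0.438% of promoters, was in AT3G45930 and AT3G46320, 237 bases before each start, and both genes fell in nga. As these promoters are identical at 296 of 300 positions and the transcripts share sequence, the 2 genes are not separate cases. No octamer match in the 50 loci overlapped a match of another motif, and a match is a description of the sequence, not a binding site.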

How the data were processed

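RNA was measured in 8 carpel libraries prepared with TruSeq kits, per the labels' protocols. The authors deposited RPKM per locus, per the file headers, written with decimal commas. The submitters' processing notes name TAIR10 and FastQC, while the sources used here do not give the aligner or the counter. Of 33590 entries, 6374 without a gene model (all 0), 18 entries of 9 repeated loci and 1 malformed entry were left out, leaving 27197 loci. The number of mapped reads was estimated from the smallest steps in RPKM, given exon lengths, and no test on counts was made.

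From these values log2(RPKM + 1) was computed, loci that reached 1 RPKM in at least 2 libraries were kept, and 1 limma 3.58.1 model (R 4.3.3) covered all 3 groups and allowed for a trend of variance with level, with Benjamini-Hochberg adjustment within each comparison. Differences on this scale understate changes of genes at low RPKM. The script was tested on simulated data. Coordinates, promoters and coding sequences are from the RefSeq annotation of TAIR10.1, in which 26710 loci matched. Shared sequence is the percent of 50-base transcript windows also found at another locus. The members, gene lists and tests were chosen with earlier results of these data known. Genes were named by rule: up to 10 called members per direction, the most abundant of each class, centromere and sperm variants, up to 3 called genes per list and direction, and the 5 loci most like H3.1. Other members are named to account for all 50, and some further listed genes and markers are named where a list was not uniform. AT1G07770, listed as H4-like, is annotated as a ribosomal protein gene and was dropped, and 1 listed gene, AT1G75610, was not analysed here. Alternatives were quantile normalization, equal library medians, no filter, a mean of at least 5 RPKM, only the 2 groups compared, replicate number as a block, lane as a term, lane 6 only, pseudocounts of 0.1 and 5, and leaving out each library. Raw reads were not used here. Tables and plots were made with pandas 2.3.3, numpy 2.4.6 and matplotlib 3.10.9 in Python 3.11.15.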

Additional observations from a re-analysis of the deposited data

How the results depend on the processing

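In nga against WT the 18 called histone loci became 11 with no filter and 11 with only the 2 groups compared. They became 3, 5 and 23 without nga 1, nga 2 and nga 3. Leaving out a WT library leaves 1, which is assumed to vary like the other groups. All 18 kept their direction in each fit that measured them. Lane 6 alone gave 24 calls, 16 of them among the 18, and the lane as a term gave 25, all 18 included. As WT was only in lane 6, these fits and the fit without nga 3 gave the same nga differences (HTA10, −1.79 in each). They differ in the spread estimated and are not separate checks of the lane. Quantile normalization, equal library medians, a mean of at least 5 RPKM and pseudocounts of 0.1 and 5 gave 16 to 18. The median of the loci stayed between −0.79 and −0.43. In 35S:NGA against WT, the count of 0 became 1 with only the 2 groups compared and stayed 0 (0 to 0) as libraries were left out and in the other fits. In 35S:NGA against nga, the count of 2 became 1 with no filter, 1 with a mean of at least 5 RPKM, 0 with only the 2 groups compared, 0 with the lane as a term, and 0 to 14 as libraries were left out, the 14 without nga 3. With the replicate number as a block the counts were 21 in nga against WT (16 of the 18 included), 0 for 35S:NGA against WT and 6 between 35S:NGA and nga. Nothing in the labels ties the numbers together, and not every pair deviated together: same-numbered nga and 35S:NGA libraries correlated at 0.10, −0.15 and 0.24 in their deviations from the group means, WT and nga at −0.26 and −0.07, WT and 35S:NGA at 0.35 and 0.37, and nga 1 and nga 2 correlated better with another number. The causes of these changes were not tested. Over all loci, calls in nga against WT were fewest without WT 1 and reached 6005 with the lane as a term, against 3008. They were 2020 with no filter, 1711 with only the 2 groups compared and 3892 with the replicate block. In lane 6 alone 2810 loci were called lower and 2706 higher. The histone counts thus changed along with those of the whole table. The 2 WT libraries limit the precision of every comparison with WT.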
